A study of Mus musculus with 6 samples.

Results

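The opioid receptor genes Oprm1, Oprd1 and Oprk1, the nociceptin receptor gene Oprl1 and the nociceptin precursor gene Pnoc were examined in the striatum of Shank3 TG and WT mice. They were taken by name, through their Ensembl identifiers, and make up 5 of the 46078 genes in the table. All 5 passed the filter on low values, a mean of at least 10 normalized read counts over the libraries, which left 17605 genes for testing. RNA was sequenced from the striatum of 3 Shank3 TG and 3 WT mice of the C57BL/6J strain at 12 weeks of age, all male according to the methods of the study, with 1 library per mouse. The Shank3 TG mice carry a transgene for Shank3 fused to the enhanced green fluorescent protein and model mania, and the WT mice lack it. The promoter of the transgene is not given in the sources used here. The comparison asks which striatal transcripts differ with the transgene. A normalized read count is the number of reads on a gene divided by a size factor of the library. The reads behind it could be recovered and totalled between 27689589 and 36647626 per library.

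Opioid receptors are G protein-coupled receptors that inhibit neurons through Gi/o proteins, which lower cyclic AMP, open G protein-gated potassium channels and close calcium channels. The mu receptor (Oprm1) binds endorphins, enkephalins and morphine, the delta receptor (Oprd1) prefers enkephalins and the kappa receptor (Oprk1) prefers dynorphins. The nociceptin receptor (Oprl1) is built like the others but answers to nociceptin, which is cut from the Pnoc protein. In the striatum, enkephalin is known as a product of indirect pathway spiny neurons and dynorphin as a product of direct pathway spiny neurons, and the mu receptor is known for its concentration in the patches called striosomes.

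The coding sequences show how the nociceptin system resembles and departs from the opioid systems. Each precursor holds its peptides behind a pair of codons for basic residues, where processing enzymes cut. The stretches below are written from 5′ to 3′ on the coding strand of GRCm38, and the capitals mark the core of the peptide, Phe-Gly-Gly-Phe in nociceptin and Tyr-Gly-Gly-Phe in the opioid peptides. Pnoc is shown with the whole 17-codon nociceptin peptide, Penk with 1 whole Met-enkephalin and the first codons of the next core, left in lower case, and Pomc with the start of its peptide.
Pnoc, chr14:65404836-65404898, minus strand: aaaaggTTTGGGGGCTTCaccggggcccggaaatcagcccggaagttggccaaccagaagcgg
Penk, chr4:4134322-4134354, minus strand: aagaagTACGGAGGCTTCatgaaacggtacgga
Pomc, chr12:3960367-3960399, plus strand: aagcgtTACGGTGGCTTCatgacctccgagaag
Penk, the enkephalin precursor, holds 7 such cores behind paired basic residues and Pdyn, the dynorphin precursor, holds 3. Pnoc and Pomc, the precursor of beta-endorphin, hold 1 each. Each stretch lies within a single coding exon.

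The receptors share a stretch around the codons Asp-Arg-Tyr, the DRY motif at which many receptors of this class meet their G proteins. In the 45 bases below, the capitals mark the 26 bases that are the same in all 4 receptors.
Oprm1, chr10:6829072-6829116, plus strand: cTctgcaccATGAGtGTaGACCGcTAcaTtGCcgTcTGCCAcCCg
Oprd1, chr4:132117237-132117281, minus strand: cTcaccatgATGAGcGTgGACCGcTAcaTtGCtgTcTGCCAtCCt
Oprk1, chr1:5598777-5598821, plus strand: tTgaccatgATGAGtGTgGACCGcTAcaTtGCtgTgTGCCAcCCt
Oprl1, chr2:181718564-181718608, plus strand: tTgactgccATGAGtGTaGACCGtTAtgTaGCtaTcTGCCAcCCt
Over the whole coding sequence, the receptors were identical at 67.8% to 71.0% of aligned bases in the 6 pairs. The longest run of identical bases between any pair was 25, between Oprk1 and Oprl1. Of the encoded residues, 65.0% were identical between Oprd1 and Oprk1, the closest pair, and 54.4% between Oprd1 and Oprl1, the most distant pair.

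Before the members are compared, the targeted gene checks the labels. Shank3 stood at 29891, 28309 and 26044 normalized read counts in Shank3 TG mice and at 13807, 12918 and 13865 in WT mice. This was a log2 fold change of 1.05 with an SE of 0.06 (adjusted P = 7.04e-05 by limma), and all 3 Shank3 TG libraries were above all 3 WT libraries. It was the only gene called at an adjusted P below 0.05 by limma, which is 0.00568% of the genes tested, and 758 genes (4.31%) had an unadjusted P below 0.05. The groups did not overlap for 10.1% of the genes tested. Markers of the labelled tissue were present in every library, with Drd1, the D1 dopamine receptor of direct pathway neurons, between 4237 and 6615 normalized read counts and Drd2, the D2 receptor of indirect pathway neurons, between 3158 and 4362. Chat, the acetylcholine-making enzyme of cholinergic interneurons, was between 309 and 513, and Slc17a7, the vesicular glutamate transporter of cortical neurons, was read at 20237 to 29848. Tbr1, another cortical marker, named after its values were seen, was at 2438 to 3425. Levels given below are therefore those of the dissected tissue, and the part of cortical neurons in them was not tested. Ttr, the leading transcript of the choroid plexus, was at 13701 in Shank3 TG replicate 1 and between 120 and 1122 in the other 5 libraries.

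None of the 5 members passed a test of the difference between the genotypes. At an adjusted P of 0.05, 0 of 5 were called by limma, 0 of 5 had an unadjusted P below 0.05, and in 0 of 5 were the groups separate, against 0.00568%, 4.31% and 10.1% of all genes tested. edgeR and DESeq2, run on the recovered reads, also called 0 of the 5. Since the RNA came from whole tissue, fewer cells of a type and less RNA per cell cannot be told apart here. With 3 mice per group, the smallest P of an exact two-sided permutation test is 0.1, so this test could not pass 0.05 for any gene. Fold changes are on the log2(normalized read count + 1) scale, which understates changes of genes with low values.

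**Figure D1:**
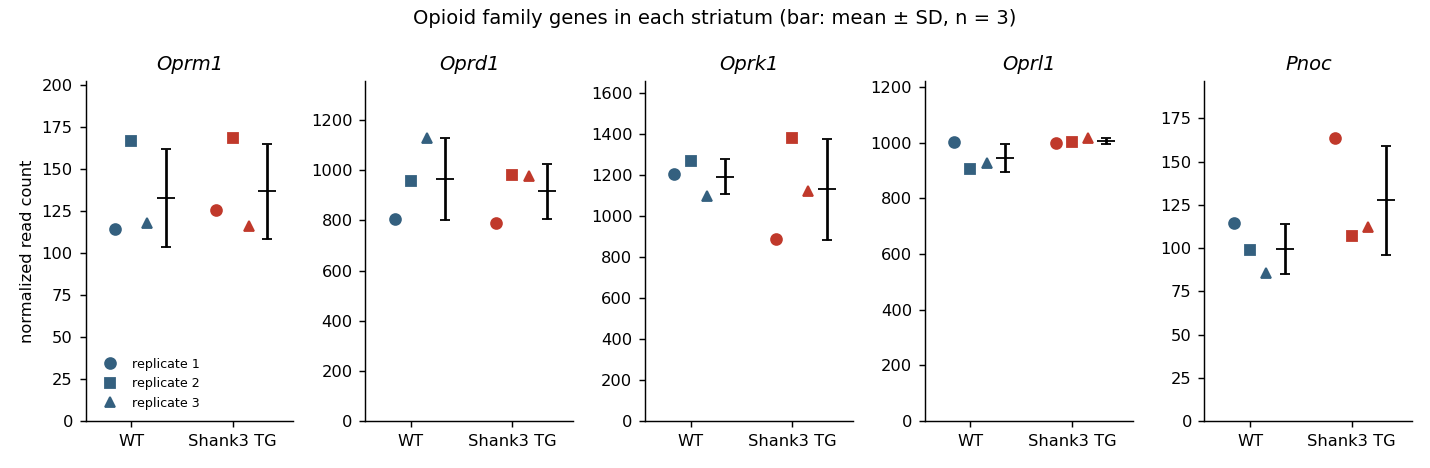
Normalized read counts (vertical axis, from 0) of the 5 genes in each of 3 WT and 3 Shank3 TG mice, a point per mouse, with the group mean and SD as a bar. The groups overlap for each gene, and Oprl1 shows the tightest points, between 904 and 1018.

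Oprm1, the mu receptor gene (ENSMUSG00000000766, chromosome 10, 6758506 to 7038198, plus strand of GRCm38), was at 125, 169 and 116 normalized read counts in Shank3 TG mice and at 114, 166 and 118 in WT mice. Each group held 1 high mouse, replicate 2 in both, above a pair of lower mice, so the groups covered almost the same range. The means were 137 ± 28.1 (SD, n = 3) and 133 ± 29.1 (SD, n = 3). The log2 fold change was 0.04 with an SE of 0.18 (adjusted P = 0.991 by limma, and P = 0.7 in the exact permutation test). Its 95% interval runs from -0.36 to 0.44, so Shank3 TG levels between 0.780 and 1.36 times those of WT mice are compatible with the data. These values rest on 100 to 178 reads per library, for which counting alone gives a coefficient of variation of 8.50% in Shank3 TG and 8.68% in WT mice, below the 20.6% and 21.9% seen between mice.

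Oprm1 has a complex gene structure that bears on what its count holds. It has 31 annotated transcripts, of which 17 are protein-coding, and 8037 exon bases in all. An exon segment of 96 bases, at 6979616 to 6979711 on chromosome 10, lies within exons of Ipcef1 on the opposite strand and belongs to 11 of the 31 transcripts. Ipcef1, a gene for a protein that interacts with cytohesin, was read far more often, at 3140, 2272 and 3119 normalized read counts in Shank3 TG mice and 2494, 2407 and 2271 in WT mice. This gave a log2 fold change of 0.24 with an SE of 0.11 (adjusted P = 0.971 by limma). Whether the counting used strand is not given in the sources used here, so reads of the shared bases cannot be assigned to one of the genes. The other 4 members overlap no annotated gene.

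Oprd1, the delta receptor gene (ENSMUSG00000050511, chromosome 4, 132110726 to 132144486, minus strand), was at 788, 980.1 and 979 normalized read counts in Shank3 TG mice and at 805, 959 and 1130.0 in WT mice. The lowest mouse of each group lay close to the other, and the highest of all was a WT mouse. The means were 915 ± 111 (SD, n = 3) and 964 ± 163 (SD, n = 3). The log2 fold change was -0.07 with an SE of 0.12 and a 95% interval from -0.34 to 0.20, or 0.793 to 1.15 times the WT level (adjusted P = 0.983 by limma, and P = 0.8 in the exact permutation test). Its sign rested on single libraries, since the log2 fold change was 0.04 without Shank3 TG replicate 1 and 0.05 without WT replicate 3.

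Oprk1, the kappa receptor gene (ENSMUSG00000025905, chromosome 1, 5588466 to 5606131, plus strand), was at 887, 1384 and 1121 normalized read counts in Shank3 TG mice and at 1209, 1272 and 1101 in WT mice. The lowest and the highest of all 6 mice were both Shank3 TG mice, and the WT mice lay between them. The means were 1131 ± 248 (SD, n = 3) and 1194 ± 86.7 (SD, n = 3). The log2 fold change was -0.10 with an SE of 0.13 and a 95% interval from -0.39 to 0.19, or 0.765 to 1.14 times the WT level (adjusted P = 0.973 by limma, and P = 0.8 in the exact permutation test). Without Shank3 TG replicate 1 the log2 fold change was 0.06. The coefficient of variation was 22.0% in Shank3 TG and 7.26% in WT mice, against 2.96% and 2.91% from counting, and whether the spread itself differs between the groups was not tested.

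Oprl1, the nociceptin receptor gene (ENSMUSG00000027584, chromosome 2, 181715016 to 181720985, plus strand), was at 999, 1000.3 and 1018 normalized read counts in Shank3 TG mice and at 1003, 904 and 926 in WT mice. The Shank3 TG mice lay within a narrow band, and WT replicate 1 fell inside it while the other WT mice were below. The means were 1006 ± 10.4 (SD, n = 3) and 944 ± 51.6 (SD, n = 3). The log2 fold change was 0.09 with an SE of 0.06 (adjusted P = 0.971 by limma, and P = 0.3 in the exact permutation test). The 95% interval, from -0.04 to 0.22, is the narrowest of the members and holds Shank3 TG levels of 0.974 to 1.17 times those of WT mice. The coefficient of variation of 1.04% in Shank3 TG mice was below the 3.11% that counting alone gives, so these 3 values lie closer together than counting can resolve.

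Pnoc, the nociceptin precursor gene (ENSMUSG00000045731, chromosome 14, 65400673 to 65425472, minus strand), was at 164, 107 and 112 normalized read counts in Shank3 TG mice and at 114, 99.1 and 85.4 in WT mice. Shank3 TG replicate 1 stood above all other mice, and WT replicate 1 was above the other Shank3 TG mice. The means were 128 ± 31.6 (SD, n = 3) and 99.7 ± 14.5 (SD, n = 3). The log2 fold change of 0.34, with an SE of 0.18, had the largest size among the members but did not pass the test (P = 0.0919, adjusted P = 0.971 by limma, and P = 0.3 in the exact permutation test). Its 95% interval from -0.07 to 0.74 spans 0.956 to 1.67 times the WT level. Without Shank3 TG replicate 1 the log2 fold change was 0.14, less than the SE with all mice. Pnoc was counted with 87 to 191 reads per library.

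**Figure D2:**
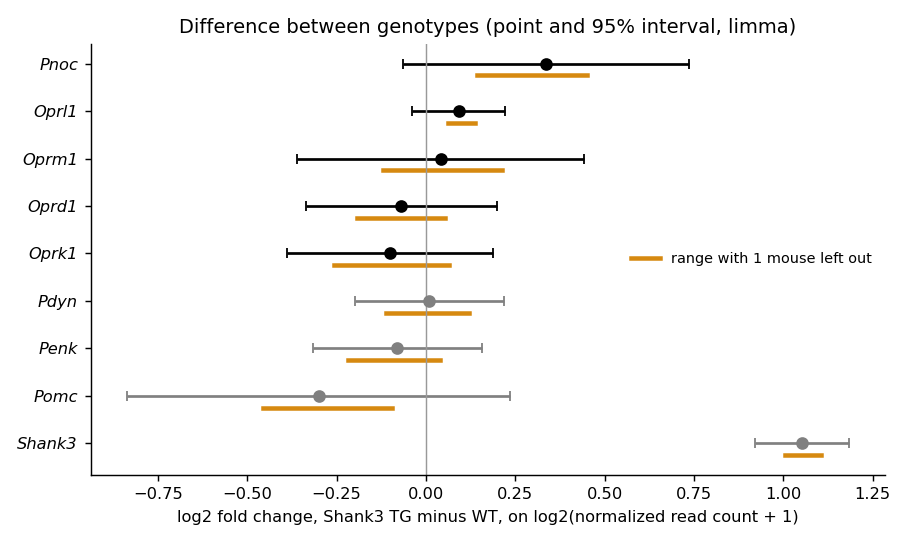
Log2 fold change of Shank3 TG minus WT mice (horizontal axis, on log2(normalized read count + 1)) for the members (black), the other opioid precursors and Shank3 (grey), as a point with its 95% limma interval, with the range over fits that leave out 1 mouse as an orange line below it. Each interval of the 5 members includes 0, and the interval of Oprl1 (-0.04 to 0.22) is narrower than that of Pnoc (-0.07 to 0.74).

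The precursors of the classical opioid peptides likewise showed no difference past the test. Penk was at 19741, 28237 and 22730 normalized read counts in Shank3 TG mice and at 25174, 23203 and 25624 in WT mice, with a mean above that of 99.4% of the genes tested. Shank3 TG mice held both the lowest and the highest value, and the log2 fold change was -0.08 with an SE of 0.11 (adjusted P = 0.973 by limma). Penk, too, was lowest in Shank3 TG replicate 1, and without that mouse its log2 fold change was 0.04. Pdyn was at 2427, 2914 and 2116 in Shank3 TG mice and at 2505, 2429 and 2411 in WT mice. The coefficient of variation of the WT mice, 2.04%, was close to that from counting, the Shank3 TG mice lay on both sides of them, and the log2 fold change was 0.01 with an SE of 0.09 (adjusted P = 0.995 by limma). Pomc, at 23.2, 38.2 and 34.1 in Shank3 TG and 41.2, 30.9 and 45.2 in WT mice, was read only 27 to 46 times per library, and its log2 fold change of -0.30 had an SE of 0.24 (adjusted P = 0.971 by limma).

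Levels of different genes were compared per length, as TPM computed here from the recovered reads, that is, reads per exon base scaled to the same total in every library. With all annotated exon bases as the length, Oprl1 was the highest receptor, with a mean of 31.3 over the 6 mice (29.4 to 33.6), and Oprd1 followed with 28.3 (22.9 to 34.2). Their order was not the same in every mouse, since Oprd1 was above Oprl1 in 1 of the 6. Oprk1 had a level of 15.3 (11.6 to 18.5), Pnoc of 6.35 (4.81 to 9.09) and Oprm1 of 2.03 (1.63 to 2.56), and each of these was below the gene before it in all 6 mice. The ligand genes spread much further, as Penk had a level of 1781 and Pdyn of 103, while Pomc reached 3.24. Of the summed receptor level in Shank3 TG mice, Oprl1 made up 42.3% ± 3.68 and Oprd1 35.7% ± 1.63, Oprk1 19.3% ± 2.67 and Oprm1 2.67% ± 0.432 (SD, n = 3). In WT mice these shares were 39.5% ± 3.51, 37.4% ± 4.90, 20.5% ± 2.02 and 2.59% ± 0.565, so that each share differed between the genotypes by less than its SD in at least 1 group.

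Part of this order depends on the length used. The length of the longest protein-coding transcript, a choice made after seeing the data, was used for the receptors and precursors only. All other genes and the scaling total kept all exon bases, so these levels are not strictly TPM. The level of Oprm1 was then 6.73 and that of Oprk1 was 30.0, because that transcript holds 2420 of the 8037 exon bases of Oprm1 and 4675 of the 9151 of Oprk1. Oprd1, with 28.3, was then above Oprk1 in 3 of 6 mice, and Oprm1 was above Pnoc in 3 of 6, so neither pair has an order on this scale. Oprl1, at 39.2, had the highest mean of the members on either length. The shares of the summed receptor level moved as well. In Shank3 TG mice they were 39.2% for Oprl1, 26.4% for Oprd1, 27.9% for Oprk1 and 6.54% for Oprm1. In WT mice they were 36.5%, 27.7%, 29.5% and 6.34% in the same order. A count per gene cannot tell which transcripts were present.

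**Figure D3:**
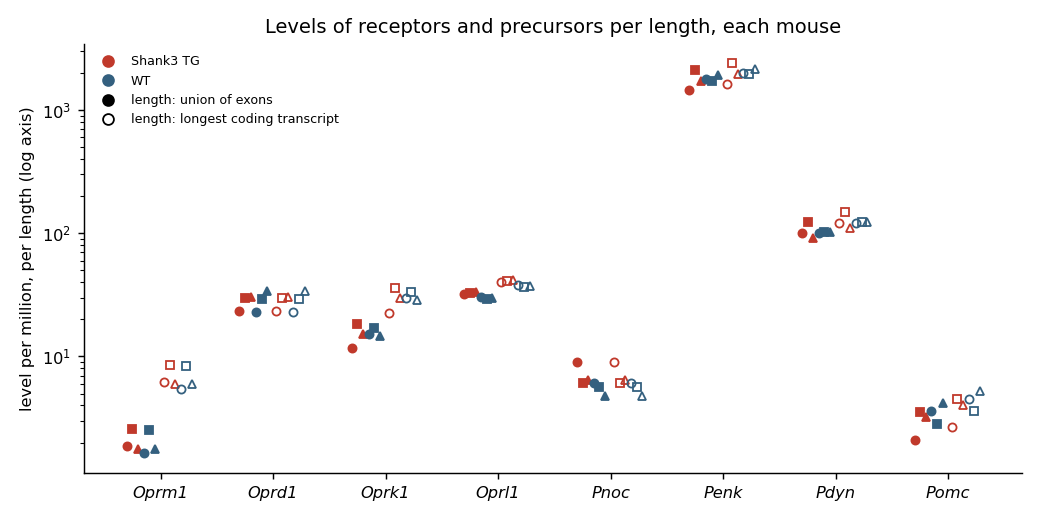
Level per length (vertical log axis) of the receptors and the precursors in each Shank3 TG (red) and WT (blue) mouse. Filled points are TPM with all annotated exon bases as the length. Open points take the longest protein-coding transcript as the length of these genes alone, with the scaling total unchanged. Circles, squares and triangles are replicates 1, 2 and 3. Penk lies far above the rest with a mean of 1781, the receptors lie between 1.63 and 34.2 on all exon bases, and Oprm1 and Oprk1 move up most with the shorter length.

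The members differed in how much they varied between mice of one genotype. The pooled SD within the groups, on the log2 scale, was 0.24 for Oprk1, 0.22 for Oprd1, 0.29 for Oprm1 and 0.28 for Pnoc, and 0.06 for Oprl1. Against the 200 genes nearest to each in mean level, Oprk1 varied more than 99.5% of them, Oprd1 more than 98.5%, Oprm1 more than 92.5% and Pnoc more than 85.5%. Oprl1 varied more than 29% of its neighbours. Penk and Pdyn were also among the more variable genes at their level, above 97.5% and 98.5% of their neighbours.

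Several of these differences between mice ran alongside the summed levels of markers of other cells. Shank3 TG replicate 1 held the lowest Oprk1, Oprd1 and Penk and the highest Pnoc, at 1.50 times the median of the 6 libraries. In the same library, the summed level of the 8 markers shared by all spiny neurons was 0.819 times the median. That of the 9 choroid plexus markers was 3.25 times the median. Enpp2, named after its values were seen, made up most of this sum in the other libraries, at 7487 to 8272 normalized read counts. Ttr was at 1122 and Kl, named likewise, at 167 in Shank3 TG replicate 2, against at most 432 and 85.4 in the libraries below it. Folr1 (15.7) and Aqp1 (7.87), named likewise, did not stand apart in Shank3 TG replicate 2. In Shank3 TG replicate 1, the sums of the thalamic neuron, astrocyte and cortical excitatory neuron markers were 1.39, 1.10 and 1.09 times the median. The astrocyte sum was higher in WT replicate 2, at 1.13 times the median. Of the thalamic markers, Prkcd, named after its values were seen, was at 675 there and between 330 and 419 in the other libraries. Slc17a6 (291 there, 291 in WT replicate 2) and Tcf7l2 (172 there, 185 in Shank3 TG replicate 2), named likewise, did not stand apart. Shank3 TG replicate 2 held the highest Oprk1, Oprm1, Penk and Pdyn, and there the cholinergic interneuron markers were 1.39 times, the direct pathway markers 1.16 times and the cortical markers 0.767 times the median. The highest Oprd1 was in WT replicate 3, which also had the highest spiny neuron sum, at 1.15 times the median. Not every value ran this way, as Oprk1 in WT replicate 3 was 0.945 times the median. The sum of the 4 claustrum-enriched genes was 0.835 times the median in Shank3 TG replicate 1, 1.02 times in Shank3 TG replicate 2 and 0.985 times in WT replicate 3. This sum was highest in WT replicate 2, at 1.08 times the median, where Oprk1 was not the highest. In WT replicate 1, Oprd1 was 0.831 times the median, while the spiny neuron sum was 0.970 and the choroid plexus sum 0.959 times. The part of these cell markers in the levels of the members was not tested.

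**Figure D4:**
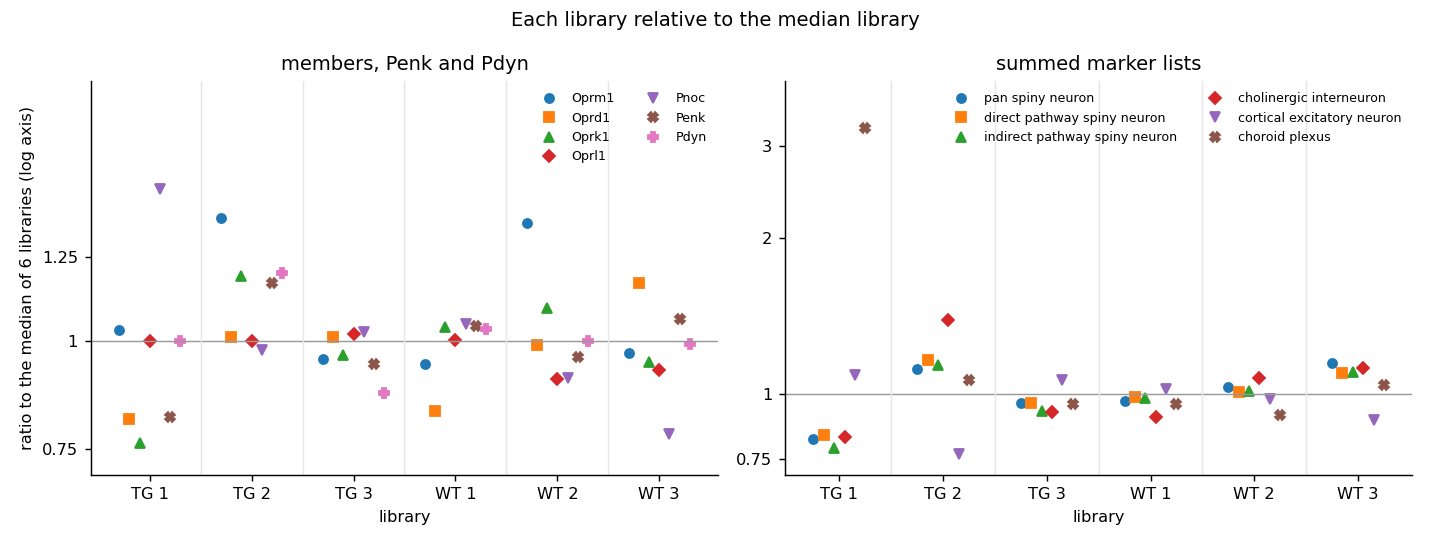
Each of the 6 libraries relative to the median library (vertical log axes, a ratio of 1 is the median), for the members with Penk and Pdyn on the left and for summed markers of 6 cell types on the right. In Shank3 TG replicate 1 the spiny neuron markers lie at 0.819 and the choroid plexus markers at 3.25, while Pnoc lies at 1.50. In the other libraries, Enpp2 makes up most of the choroid plexus sum.

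By group, the summed spiny neuron markers ran from 115407 to 157308 normalized read counts in Shank3 TG mice and from 136590 to 161726 in WT mice. All 8 of these markers were lower in Shank3 TG mice, with a median log2 fold change of -0.12 against -0.00 over all genes tested, and none had an unadjusted P below 0.05 by limma. Without Shank3 TG replicate 1, 5 of the 8 were lower and the median was -0.03. Spiny neuron markers were not alone in this. All 4 claustrum-enriched genes (median -0.17) and all 6 microglia markers (median -0.09) were lower too, 2 and 1 of them with an unadjusted P below 0.05 by limma. Without Shank3 TG replicate 1, 3 claustrum-enriched genes (median -0.11) and 5 microglia markers (median -0.05) were lower. The summed choroid plexus markers ran from 8430 to 28575 in Shank3 TG and from 8039 to 9164 in WT mice. Outside Shank3 TG replicate 1, Enpp2 made up most of this sum. All 9 choroid plexus markers had a higher mean in Shank3 TG mice (median log2 fold change 0.86), 3 with an unadjusted P below 0.05. Without Shank3 TG replicate 1, 6 were higher and 3 lower, with a median of 0.41. Over the 15 marker lists, 89 genes were tested, 0 were called and 7 (7.87%, against 4.31% of all genes) had an unadjusted P below 0.05, 3 of them above and 4 below the WT mean, and the groups were separate for 6 (6.74%, against 10.1%). The 9 GABAergic interneuron markers, which bear on Pnoc since interneurons are known to express it, had a summed level of 10333 to 10811 in Shank3 TG and 10443 to 11262 in WT mice, and 3 of them were higher and 6 lower, with a median log2 fold change of -0.05. Their sum was lowest in Shank3 TG replicate 1, at 0.974 times the median. Calb2, an interneuron marker named after its values were seen, was at 519 in that library and between 145 and 267 in the others. Its log2 fold change was 0.61 with an SE of 0.31 (adjusted P = 0.971 by limma). Of the other markers, named likewise, Th was also highest in Shank3 TG replicate 1, while Pvalb, Sst, Npy and Nos1 were lowest there. Lhx6 (683), Vip (372) and Pthlh (106) were neither highest nor lowest in that library, and Lhx6 was higher only in Shank3 TG replicate 2 (728). The part of interneurons in the level of Pnoc was not tested.

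Ratios within a library set a receptor beside a marker or its ligand. The ratio of Oprk1 to Drd1 was 0.209, 0.209 and 0.205 in Shank3 TG mice and 0.217, 0.220 and 0.172 in WT mice. Its highest value was 1.28 times its lowest, against 1.56 times for Oprk1 alone, and the large gap between Shank3 TG replicates 1 and 2 was absent from the ratio. The ratio was close only among Shank3 TG mice, at 0.208 ± 0.00242, against 0.203 ± 0.0270 in WT mice (SD, n = 3). Oprk1 alone varied the other way, with coefficients of variation of 22.0% in Shank3 TG and 7.26% in WT mice. The reason was not tested. The ratio of Oprl1 to Pnoc was 6.09, 9.37 and 9.09 in Shank3 TG and 8.76, 9.12 and 10.8 in WT mice, lowest in Shank3 TG replicate 1. It spread further than Oprl1 alone, with a highest value 1.78 times the lowest against 1.13 times. Both ratios overlapped between the genotypes. The ratio of Pdyn to Oprk1, ligand to receptor, was 2.74, 2.11 and 1.89 in Shank3 TG and 2.07, 1.91 and 2.19 in WT mice, and also overlapped. Its highest value was 1.45 times its lowest, against 1.38 times for Pdyn alone.

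The genes that handle opioid peptides and carry the signal of the receptors were grouped into 8 lists with 48 genes, all of them tested. Of these, 0 were called by limma, 24 had a higher and 24 a lower mean in Shank3 TG mice, and the median log2 fold change was 0.00. An unadjusted P below 0.05 was found for 2 (4.17%, against 4.31% of all genes), and the groups were separate for 2 (4.17%, against 10.1%). The lists stood at or below the background of all genes.

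Among the peptide makers, the 7 processing enzymes and their regulators had 3 genes higher and 4 lower, with a median log2 fold change of -0.00. Pcsk1n, which encodes the protein proSAAS, an inhibitor of the convertase PC1, was at 14879, 13193 and 11874 normalized read counts in Shank3 TG mice and at 15472, 15328 and 14771 in WT mice. The groups overlapped by a single mouse, and the log2 fold change of -0.20 with an SE of 0.07 had an unadjusted P of 0.0217 and an adjusted P of 0.971 by limma. Pcsk1, the convertase PC1 itself, had a log2 fold change of 0.18 with an SE of 0.13. Of the 9 peptidases that break down opioid peptides, 4 were higher and 5 lower, from -0.18 for Anpep, aminopeptidase N, to 0.14 for Lnpep. Npepps, the puromycin-sensitive aminopeptidase that degrades enkephalins, was at 4927, 5321 and 5313 in Shank3 TG and at 4890, 4913 and 4918 in WT mice. It was named after its values were seen, since its groups were separate, by less than 10 counts, and its log2 fold change was 0.08 with an SE of 0.05 (adjusted P = 0.971 by limma).

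Downstream of the receptors, the 5 alpha subunits of Gi/o proteins had 2 genes higher and 3 lower, from -0.08 for Gnai2 to 0.12 for Gnai1. The 4 G protein-gated potassium channel subunits had 3 higher and 1 lower, with a median log2 fold change of 0.16 and none past an unadjusted P of 0.05. Of these, Kcnj3 had a log2 fold change of 0.17, Kcnj6 of 0.16 and Kcnj9 of -0.06, while Kcnj5, named with Kcnj6 after their values were seen, with 0.22 and an SE of 0.35, was read at only 13.7 to 39.3 normalized read counts. The receptor kinases and arrestins, which end the signal, had 5 of 7 higher, with a log2 fold change of 0.15 for Grk4 and -0.05 for Grk5. Without Shank3 TG replicate 1, 3 of these 7 were higher. The RGS proteins, which speed the shutdown of Gi/o proteins, had 4 of 6 higher, with 0.08 for Rgs17, and Rgs9, also a spiny neuron marker, had the lowest log2 fold change of them at -0.16.

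Gprasp1 encodes a sorting protein known to send internalized delta receptors to lysosomes. It was at 18130, 20314 and 19386 normalized read counts in Shank3 TG mice and at 16370, 17570 and 17765 in WT mice. All 3 Shank3 TG mice were above all 3 WT mice. The log2 fold change was 0.16 with an SE of 0.06 (P = 0.0171, adjusted P = 0.971 by limma, and P = 0.1 in the exact permutation test, the smallest it allows), so it did not pass the test over all genes. The rest of its list of 7 trafficking partners and atypical opioid-binding receptors had 1 gene higher and 5 lower.

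**Figure D5:**
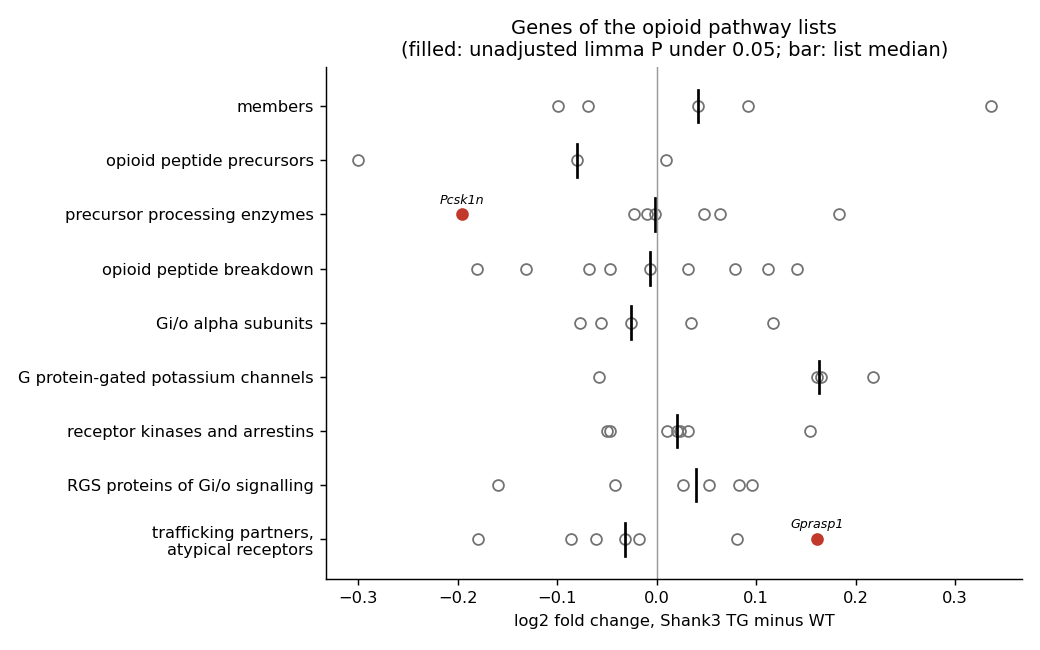
Log2 fold change of Shank3 TG minus WT mice (horizontal axis) for the 5 members in the top row and each of the 48 genes of the 8 opioid pathway lists, a point per gene, with the list median as a bar and genes of an unadjusted limma P below 0.05 (Pcsk1n and Gprasp1) filled. The points of the 8 lists lie between -0.30 (Pomc) and 0.22 (Kcnj5), and their overall median is 0.00.

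The genes whose levels followed each member most closely over the 6 libraries were taken from 12799 candidates, each averaging 100 normalized read counts or more. By Pearson's r of the log2 values, given as a description over 6 libraries that share depth and tissue makeup with the members, Oprm1 was followed most closely by Gm37158 (0.984), Vps13c (0.983) and Gucy1a2 (0.981). Phka1 (0.996) and Lamc1 (0.995) followed Oprd1, and Mboat2 (0.994), Gnb4 (0.983) and Atp5k (0.981) followed Oprk1. Gnb4 is also on the list of claustrum-enriched genes. The genes nearest to Oprl1 were Cops2 (0.995), Eny2 (0.981) and Slc25a46 (0.980), and those nearest to Pnoc were Rpp40 (0.991), Dnajc17 (0.989) and Gbp5 (0.986). Between 68 genes for Oprm1 and 278 genes for Oprd1 had an r above 0.9, so 6 libraries do not single out these few.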

How the data were processed

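Striatal RNA of 3 Shank3 TG and 3 WT mice was prepared with the TruSeq RNA Sample Prep Kit v2, 1 library per mouse. The submitters' processing notes name Trimmomatic 0.35, TopHat2 2.1.0, HTSeq, DESeq2 and the genome GRCm38. The authors deposited a signal per gene, namely HTSeq counts scaled by DESeq2 size factors. Neither the strand setting of HTSeq nor the annotation release is given in the sources used here.

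GENCODE M21 held the Ensembl identifiers of 45143 of the 46078 genes and gave positions, lengths and coding sequences on GRCm38. Of the genes of the lists, 1 (Gpr52) was not matched. Values of each library were whole multiples of its smallest value above 0 (100% within 0.01), which gave the reads behind them, 27689589 to 36647626 per library. Coefficients of variation from counting cover counting error only.

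The test was limma 3.58.1 in R 4.3.3 (trend option) on log2(normalized read count + 1). Genes averaging 10 or more were tested, with Benjamini-Hochberg adjusted P values called below 0.05. Alternatives were DESeq2 1.42.0, edgeR 4.0.16 (quasi-likelihood) and limma-voom on the recovered reads, where DESeq2 called 7 genes and edgeR 1, and scaling by TMM or by library totals, a minimum mean of 50 or none, a pseudocount of 0.5 or 5, the replicate number as a block and each mouse left out. The length of the longest protein-coding transcript was added after seeing the data, for the receptors and precursors only, with the scaling total left on all exon bases. The fits were tested on simulated data in which all genes shared the same dispersion. That test does not measure how well changes of the members would be detected.

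The members and the lists of 8 pathway groups and 15 groups of cell markers were chosen with earlier results of these data known. Genes named are Shank3, the members, the other precursors, the gene with the smallest P in each direction in a pathway list, leading markers, genes overlapping a member and the 3 genes closest to each member over the libraries. Exceptions are marked. A few named genes and a sequence that these rules give are not reported here.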

Additional observations from a re-analysis of the deposited data

How the results depend on the processing

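Under the 16 alternative settings, 0 of the 5 members were called. Their lowest adjusted P over these settings was 0.747, for Oprl1 without Shank3 TG replicate 1. The other 10 settings, those that keep all mice, kept the direction of each member. With 1 mouse left out, the log2 fold change ranged from -0.12 to 0.21 for Oprm1, from -0.19 to 0.05 for Oprd1 and from -0.26 to 0.06 for Oprk1, each crossing 0, and from 0.06 to 0.14 for Oprl1 and from 0.14 to 0.45 for Pnoc. The sign of Oprm1 turned without Shank3 TG replicate 2 (-0.12), WT replicate 1 (-0.06) or WT replicate 3 (-0.03), that of Oprd1 without Shank3 TG replicate 1 (0.04) or WT replicate 3 (0.0525), and that of Oprk1 without Shank3 TG replicate 1 (0.0636). The lowest unadjusted P values were 0.0257 for Oprk1 without Shank3 TG replicate 2, 0.0362 for Pnoc with the replicate block and 0.0471 for Oprl1 without WT replicate 1.

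Over all genes, limma called 1 gene, against 5 without a filter, 7 with DESeq2 and 1 to 2 with 1 mouse left out (2 without Shank3 TG replicate 2 or 3). Genes of the pathway lists with an unadjusted P below 0.05 numbered 2, against 1 to 6 with 1 mouse left out (6 without Shank3 TG replicate 1, 5 without Shank3 TG replicate 2, 1 without WT replicate 1 and 4 without WT replicate 2). Those of the marker lists numbered 7, against 12 without a filter, 11 with edgeR and 6 to 31 with 1 mouse left out (31 without Shank3 TG replicate 2 and 11 without Shank3 TG replicate 3). The cause was not tested. With the longest protein-coding transcript as the length of the receptors and precursors alone, a choice made after seeing the data, the levels were 6.73 for Oprm1, 30.0 for Oprk1 and 39.2 for Oprl1.

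The replicate numbers were not shown to pair the mice, since the deviations of same-numbered libraries correlated at 0.0474, 0.0163 and 0.0928. With the number as a block, 4 pathway genes and 19 marker genes had an unadjusted P below 0.05, 1 gene was called over all, and the log2 fold change of Pnoc was 0.34 (adjusted P = 0.851 by limma). Shank3 TG replicate 1 did not correlate best with its own number but with WT replicate 2, at 0.0771.
The coefficient of variation between mice was above that from counting in both groups for Oprm1, Oprd1, Oprk1 and Pnoc. For Oprd1 it was 12.1% in Shank3 TG and 16.9% in WT mice, against 3.28% and 3.23% from counting. The gap was smaller for Pnoc in WT mice, at 14.6% against 10.1%, and 3 mice give only a rough spread. For Oprl1 it was above counting only in WT mice. The small number of mice limits what could be detected, and the part of depth in this limit was not tested.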
